A study of Mus musculus with 3 samples.

Results

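Genes that carry a cell through DNA replication and mitosis were followed through the cell types of mouse calvaria, the flat bone of the skull roof, with and without a carcinoma implanted on it. The 33 genes were chosen by name, of 31053 genes listed in each of 3 single-cell RNA libraries, and every library lists all 33. They are 21 mitotic genes, 11 replication genes and Stmn1, which encodes the microtubule-destabilising protein stathmin. All mice were C57BL/6 and 8 weeks old. The control library came from the calvaria of mice without a tumour. For the scratch-negative library, labelled pre-invasive, cells of the mouse squamous carcinoma line HNM007 were placed on a calvaria with its surface untouched. For the scratch-positive library, labelled invasive, a 21 G needle was drawn over the bone before implantation, a procedure that strips the periosteum, the connective tissue layer on its outer face. Both tumour-bearing tissues were taken 1 week after implantation and after the tumour had been cut away. In all 3 libraries live CD45+ and CD45- cells had been mixed 1:1, so class sizes were partly set by the sort and are not compared. Scratched bone that bore no tumour is not among the groups, so effects of the scratch, of the missing periosteum and of invasion cannot be told apart.

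Each group is 1 library, and the labels do not give the number of mice behind it, so no test between groups exists and every comparison below is between libraries. After filtering, 22195 of 25511 barcodes were kept, with 6179 to 8426 cells per library. Total counts of unique molecular identifiers (UMIs) ran from 100089008 in control to 395654008 in scratch-positive, and median UMIs per kept cell from 8864 to 36437.5. Pairs of libraries shared 16 to 30 cell barcodes. Levels are UMIs summed over a cell class in a library, scaled to the total UMIs of those cells as CPM, with exact 95% Poisson intervals. Ratios of 2 levels have exact conditional binomial intervals, and all intervals cover counting error only. A gene is called higher or lower where its level differed at least 1.5-fold and the whole interval lay on that side of 1, among genes with at least 10 UMIs in the 2 sets of cells. Classes were compared between libraries only with at least 50 cells in both. In summed cells, more dividing cells and more RNA of these genes per dividing cell cannot be told apart. The share of mitotic-positive cells is therefore given beside the level: each cell was thinned to 3000 UMIs, shallower cells were left out, and a cell with UMIs of at least 3 distinct mitotic genes was counted.

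In a dividing cell, the helicase subunits Mcm2 to Mcm7 open the DNA, the sliding clamp Pcna holds polymerases on the template, and ribonucleotide reductase (Rrm1 and Rrm2), thymidylate synthase (Tyms) and thymidine kinase (Tk1) supply the building blocks. Mitosis is then driven by Cdk1 with the cyclins Ccna2, Ccnb1 and Ccnb2, by the kinases Plk1, Aurka and Aurkb, and by the spindle proteins Tpx2, Kif11, Kif20a and Nusap1. Cenpa, Cenpe and Cenpf sit at centromeres and kinetochores, Bub1 and Bub1b hold anaphase back until chromosomes are attached, and Cdc20 and Ube2c serve the ubiquitin ligase that ends mitosis. Birc5 works with Aurkb in the chromosomal passenger complex, Top2a untangles DNA, and Mki67 coats mitotic chromosomes. In bone marrow the early blood precursors divide and the mature granulocytes do not, and osteoclasts form by fusion of monocyte-lineage cells that have left the cell cycle.

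The promoters of these genes differ in short sequence motifs, which are shown here because mitotic and replication genes parted in several classes described below. RefSeq windows of 300 bases (build GRCm38.p6, 250 bases before to 50 after a start) matched 27 of the 33 genes, with a pair of windows for Mcm7. The unmatched genes were Kif20a, Aurkb, Ccna2, Stmn1, Tpx2 and Mcm4. Windows were searched on both strands for the cell cycle homology region known from late cell cycle genes (CHR; TTTGAA or TTCGAA), the CCAAT box (CCAAT), and 4 words of the kind bound by E2F factors (TTTGGCGC, TTTCCCGC, TTTGCCGC, TTTCGCGC). The E2F words can overlap each other on opposite strands, as they do in Mcm6. Shown are the 120 bases before the start of 3 mitotic genes with CHR words and of 2 helicase genes without one, written 5′ to 3′ on the minus strand that carries all 5 genes, with matches to any of the words on either strand in capitals. They lie at chr4:118437344-118437463 (Cdc20), chr11:99024190-99024309 (Top2a), chr7:135716380-135716499 (Mki67), chr1:20820313-20820432 (Mcm3) and chr1:128359706-128359825 (Mcm6).
Cdc20: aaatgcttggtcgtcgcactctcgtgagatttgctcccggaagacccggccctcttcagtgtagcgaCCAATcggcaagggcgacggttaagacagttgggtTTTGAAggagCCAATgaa
Top2a: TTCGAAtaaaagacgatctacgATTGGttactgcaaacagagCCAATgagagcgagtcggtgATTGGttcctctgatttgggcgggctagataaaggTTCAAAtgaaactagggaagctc
Mki67: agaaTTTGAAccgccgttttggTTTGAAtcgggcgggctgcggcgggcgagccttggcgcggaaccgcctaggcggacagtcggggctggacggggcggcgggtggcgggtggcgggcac
Mcm3: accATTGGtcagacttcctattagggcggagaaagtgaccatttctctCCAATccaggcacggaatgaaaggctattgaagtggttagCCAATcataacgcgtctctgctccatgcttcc
Mcm6: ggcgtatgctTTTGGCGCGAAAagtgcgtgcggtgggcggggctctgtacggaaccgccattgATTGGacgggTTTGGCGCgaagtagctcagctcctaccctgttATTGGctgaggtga

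A CHR word was present in 13 of 17 mitotic windows (76.5%), in 2 of 11 replication windows (18.2%) and in 19.2% of all 32851 RefSeq windows of this length. The CCAAT box was present in 88.2% of mitotic, 81.8% of replication and 37.4% of all windows. An E2F word was present in 5.88% of mitotic, 36.4% of replication and 2.26% of all windows. Mitotic windows thus held a CHR word together with a CCAAT box in 76.5% of cases against 7.52% of all windows, and replication windows in 18.2%. A match is a description of these letters and no evidence of binding.

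Among the control classes given here, the summed mitotic level was highest in blood precursors and lowest in mature neutrophils and mature lymphocytes. The summed level of the 21 mitotic genes in control was 3582 CPM in pro-B and pre-B cells, 3362 CPM in erythroid cells, 2597 CPM in neutrophil precursors and 2535 CPM in granulocyte-monocyte progenitors. It was 1487 CPM in monocytes and macrophages, 406 CPM in mature B cells, 359 CPM in NK cells, 231 CPM in T cells and 196 CPM in mature neutrophils. The carcinoma cells held 2545 CPM (2519 to 2571) in scratch-negative and 2756 CPM (2749 to 2763) in scratch-positive, in the range of the blood precursors. Macrophages stood between these precursors and the mature leukocytes.

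**Figure D1:**
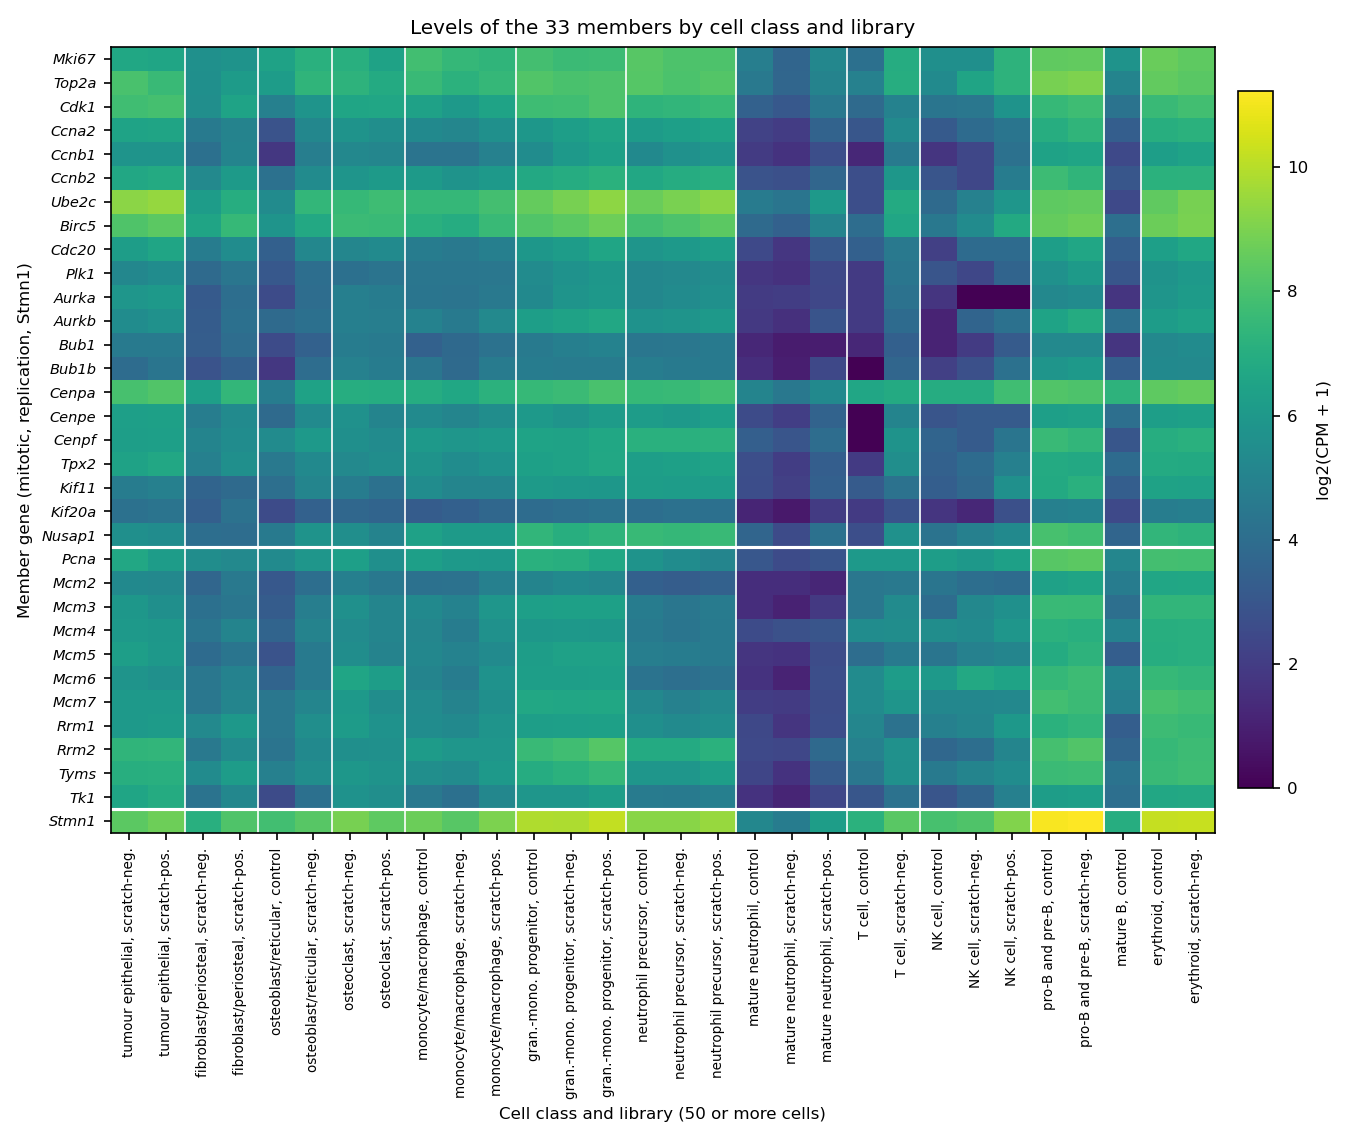
Level of each of the 33 genes (rows, grouped as mitotic, replication and Stmn1) in each class and library with at least 50 cells (columns), as a colour scale of log2(CPM + 1). The pro-B and pre-B, erythroid and progenitor columns stand at the high end of the scale, and the mature neutrophil columns at the low end.

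The replication genes were more uniform at the bottom. All 11 were lowest in mature neutrophils in each of the 3 libraries. In control, 6 of them were highest in erythroid and 5 in pro-B and pre-B cells, and in scratch-negative the counts were again 6 and 5. In scratch-positive, where pro-B and erythroid cells were under 50, 8 were highest in granulocyte-monocyte progenitors, 2 in carcinoma cells and Mcm6 in NK cells, with an interval that overlapped that of the progenitors. Mcm6, a helicase subunit, stood at 179 CPM in erythroid cells, 175 CPM in pro-B and pre-B cells, 76.3 CPM in granulocyte-monocyte progenitors, 18.1 CPM in neutrophil precursors and 2.1 CPM in mature neutrophils of control. NK and T cells held more Mcm6 than neutrophil precursors, at 66.0 and 41.8 CPM, although they held far less of the mitotic genes. Pcna, the clamp, showed the same inversion, with 75.1 CPM in NK cells and 66.8 CPM in T cells against 53.8 CPM in neutrophil precursors.

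The mitotic genes were less uniform. In control 8 of 21 were lowest in T cells, 7 in mature neutrophils and 4 in NK cells, and in scratch-negative and scratch-positive 19 and 17 were lowest in mature neutrophils. In control 11 of 21 were highest in pro-B and pre-B cells and 8 in erythroid cells. Ube2c, the ubiquitin-conjugating enzyme of the anaphase-promoting complex, was highest in neutrophil precursors at 396 CPM, and Cdk1, the mitotic kinase, in granulocyte-monocyte progenitors at 210 CPM, where the interval of Ube2c (389 to 403) touched that of the progenitors (364 to 390) and the interval of Cdk1 (200.2 to 219.7) lay just above that of erythroid cells (184 to 199.8). In scratch-positive 8 mitotic genes were highest in granulocyte-monocyte progenitors, 7 in carcinoma cells, 5 in neutrophil precursors and Bub1b, a checkpoint kinase, in osteoclasts. Stmn1 was highest in pro-B and pre-B cells, at 2180 CPM in control and 2378 CPM in scratch-negative. Across 31 class-by-library levels, which share libraries and depth, the summed mitotic and replication levels had a Pearson correlation of 0.87 on the log2 scale, given as a description.

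Counted cell by cell, most erythroid cells, granulocyte-monocyte progenitors and early B-lineage cells were mitotic-positive. The share was 88.9% (84.2 to 92.6, exact Clopper-Pearson) of erythroid cells in control and 93.3% in scratch-negative. It was 75.5%, 83.6% and 79.8% of granulocyte-monocyte progenitors in control, scratch-negative and scratch-positive, and 43.2%, 47.9% and 50.1% of neutrophil precursors. Pro-B and pre-B cells stood at 58.3% (49.8 to 66.5) in control and 79.8% (71.1 to 86.9) in scratch-negative, a difference not matched by their summed mitotic level, whose ratio was 1.05 (1.02 to 1.08). Carcinoma cells were mitotic-positive in 59.3% (51.8 to 66.5) of 182 cells in scratch-negative and 61.3% (59.6 to 62.9) of 3512 cells in scratch-positive, so these intervals overlapped. Without thinning the carcinoma shares were 93.4% and 97.5%, at median depths of 76210 and 64457 UMIs.

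Mature neutrophils do not divide, and the clusters named as such give a share reached by a non-dividing class in these libraries. An unnamed cluster led by Ccl3 and Ccl4 also carried 9 mature neutrophil markers and is not part of it. The mitotic-positive share of that cluster was higher, at 5.44% in scratch-negative and 11.17% in scratch-positive. In the named mature neutrophils it was 1.25% (0.842 to 1.77) in control, 0.542% (0.280 to 0.945) in scratch-negative and 2.97% (1.77 to 4.65) in scratch-positive. Their median depths were 6034, 6639.5 and 5584 UMIs. The positive cells among them were deep, at a median of 19850 UMIs against 6531 in the others of control, and held 67.7% of the mitotic UMIs of the thinned class there, so these UMIs were not spread evenly; their source was not tested. T cells in control (3.16%, 0.656 to 8.95) and NK cells in control (1.38%, 0.168 to 4.89), scratch-negative (3.31%, 0.908 to 8.25) and scratch-positive (8.00%, 2.22 to 19.2) had intervals that overlapped those of the mature neutrophils of their library. No dividing cells are read from these shares. The criterion is a count on a scale and not a cell type: of the thinned carcinoma cells in scratch-positive, 352 had exactly 2 and 344 exactly 3 mitotic genes, beside 2152 counted as positive.

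**Figure D2:**
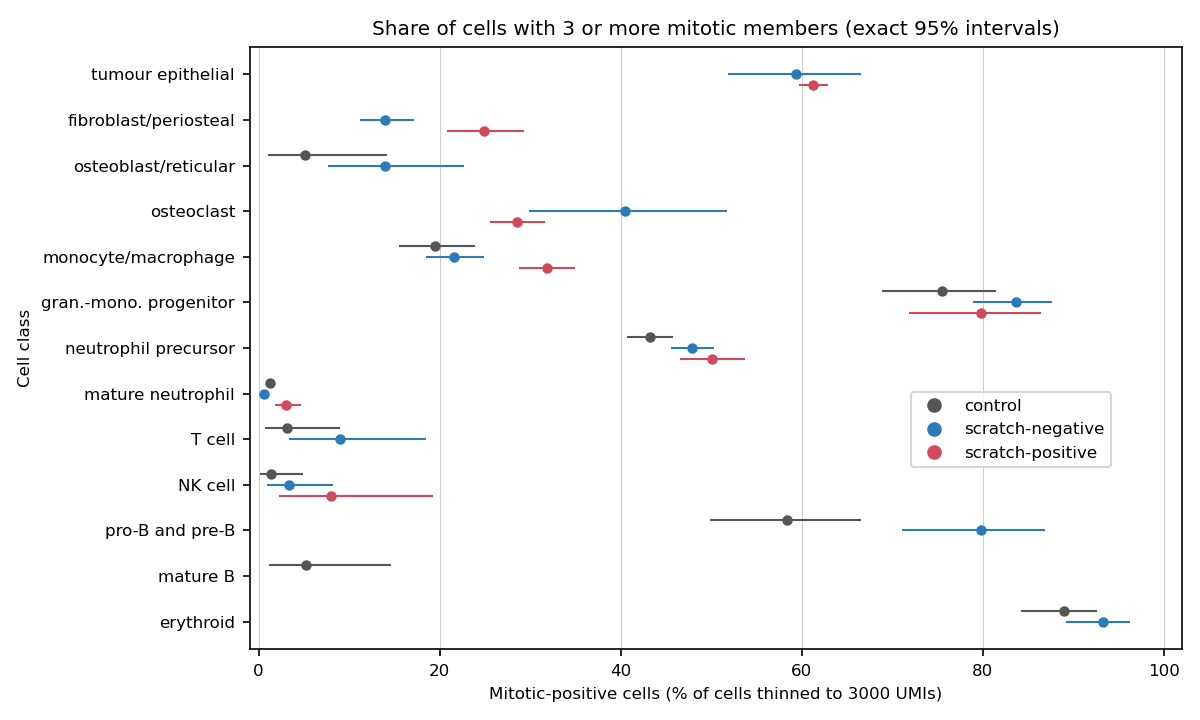
Share of cells, thinned to 3000 UMIs, with UMIs of at least 3 distinct mitotic genes (x axis, %) in each class with at least 50 cells (y axis), by library; points are shares and lines exact 95% intervals. Erythroid cells and progenitors lie at the right, carcinoma cells at 59.3% and 61.3%, and mature neutrophils at 1.25%, 0.542% and 2.97%.

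Along the neutrophil lineage the chosen replication genes were lower than in the progenitors well before the mitotic genes were. The clusters were ordered by granule genes known to mark maturation: progenitors led by Ctsg and Mpo, early precursors led by Chil3 and Fcnb, late precursors led by Ltf and Ngp, then mature neutrophils led by Mmp8, by Retnlg and by Ccl6. The leading genes of the early precursors also included the histone genes Hist1h3c, Hist1h2ab, Hist1h2br and Hist1h2ap. Histone genes are not among the replication genes summed here. Whether fewer early precursors than progenitors were replicating DNA was not tested. The early precursors had a summed mitotic level of 3469, 3528 and 4018 CPM in control, scratch-negative and scratch-positive, against 2535, 2714 and 3245 CPM in the progenitors. Their summed replication level was 641, 578 and 670 CPM against 1022, 1075 and 1192 CPM. The mitotic sum was thus higher and the replication sum lower than in the progenitors in each of the 3 libraries.

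Of the 21 mitotic genes, 4, 5 and 4 were called higher in early precursors than in progenitors and none was called lower. In the same comparison 6.65%, 6.8% and 6.38% of all genes were called higher and 39.1%, 43.1% and 36.0% lower in control, scratch-negative and scratch-positive, and the median of all genes was -0.44, -0.52 and -0.45 on the log2 scale. The median ratio of the mitotic genes was 1.34, 1.29 and 1.18, with 20, 18 and 18 of 21 above 1. Cenpf, a kinetochore protein, stood at 89.8 CPM in the control progenitors and 187 CPM in the early precursors, and Mki67 at 232 and 396 CPM. Of the 11 replication genes, 8, 9 and 8 were called lower, and none had a ratio above 1. Mcm6 stood at 76.3 CPM in the control progenitors, 28.5 CPM in the early precursors and 7.30 CPM in the late ones.

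In late precursors all 11 replication genes were called lower than in progenitors in each library, with median ratios of 0.186, 0.146 and 0.142, where 46.9%, 50.2% and 44.5% of all genes were called lower. Mitotic genes were called lower in 12, 14 and 13 of 21 cases, with median ratios of 0.650, 0.626 and 0.583. On the log2 scale their medians were -0.62, -0.68 and -0.78. These lay near the medians of all genes, at -0.60, -0.71 and -0.62. The highest replication ratio lay below the lowest mitotic ratio in each library, as it had in early precursors except in control, at 0.396 against 0.433, 0.279 against 0.345 and 0.317 against 0.321. Mcm6 had the lowest ratio in each library, at 0.0958, 0.0786 and 0.0902 of its progenitor level. Cenpf, at 1.00, 1.10 and 0.937, and Mki67, at 1.01, 0.995 and 0.914, were near their progenitor levels. Stmn1 stood at 0.354, 0.354 and 0.325, inside the replication range in control and inside the mitotic range in the other 2 libraries.

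The other cell cycle lists are given by their counts. Of 33 further licensing and replication fork factors, all 33 were called lower in late precursors in each library. Of 66 further mitotic factors, 43, 39 and 47 were called lower and 1, 2 and 1 higher. The G1 cyclins and their kinases were called lower in 6 of 8, 6 of 9 and 8 of 9 measured cases, and 1 was called higher in scratch-negative. The CDK inhibitors were called higher in 1 of 4, 3 of 5 and 2 of 6 measured cases and lower in 0, 0 and 2. Of all genes, 12.6% (scratch-positive) to 14.1% (control) were called higher in late precursors than in progenitors. The ratio of mitotic to replication UMIs was 2.48, 2.53 and 2.72 in progenitors and 7.39, 9.32 and 9.41 in late precursors. In the Mmp8 neutrophils every mitotic and every replication gene lay below its late precursor level in each library, and the mitotic-positive share was 2.62%, 0.871% and 4.89%.

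**Figure D3:**
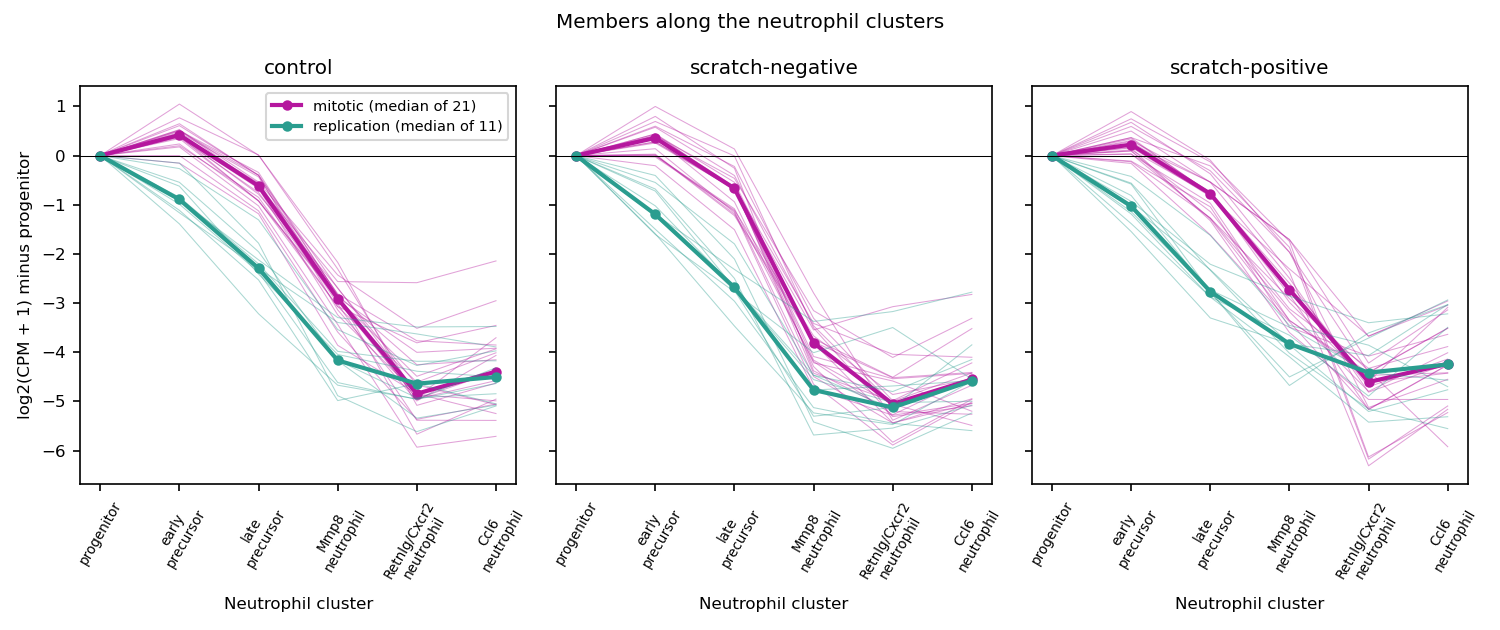
Level of each mitotic and replication gene in 6 neutrophil clusters, as log2(CPM + 1) minus the value in the progenitors (y axis), in the 3 libraries; thin lines are genes and thick lines the medians of 21 mitotic and 11 replication genes. The mitotic median lies above 0 in early precursors while the replication median lies below it in all 3 panels.

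Between libraries the progenitors and precursors differed in few of the 33 genes. In granulocyte-monocyte progenitors 5 of 21 mitotic and 1 of 11 replication genes were called higher in scratch-positive than in control, where 8.88% of all genes were called higher. Ccnb1, cyclin B1, stood at 42.5 CPM in control, 66.3 CPM in scratch-negative and 80.8 CPM in scratch-positive. Ube2c stood at 377, 488 and 626 CPM over the same 3 libraries, and Pcna had the opposite order, at 140, 129.9 and 103 CPM. In scratch-negative over control Ccnb1 alone was called higher (3.26% of all genes higher, 3.8% lower), and in scratch-positive over scratch-negative none of the 33 was called (5.48% of all genes higher). In neutrophil precursors 2 of 21 mitotic genes were called higher in scratch-positive than in control (10.3% of all genes) and Pcna was called lower (8.82% of all genes). Those 2 were Ube2c, at 396, 500 and 611 CPM over the 3 libraries, and Ccnb1, at 39.2, 49.9 and 58.8 CPM. Pcna stood at 53.8, 43.4 and 33.5 CPM. None of the 33 was called in scratch-negative over control (4.02% of all genes higher, 5.19% lower) or in scratch-positive over scratch-negative (7.02% higher, 2.57% lower).

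Pcna was among the lowest ratios well beyond this lineage. It was among the 3 lowest of the measured genes in 5 of 5 classes compared between scratch-positive and control, in 6 of 8 between scratch-positive and scratch-negative and in 4 of 9 between scratch-negative and control. It lay below the median of the measured genes in 8 of 8 classes in scratch-positive over scratch-negative, as did Top2a and Mcm5. These comparisons share libraries, so the counts are not independent. Ube2c was among the 3 highest in 4 of 5 classes in scratch-positive over control.

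Carcinoma cells carried similar levels in both tumour-bearing libraries. The summed mitotic ratio of scratch-positive over scratch-negative was 1.08 (1.07 to 1.09) and the replication ratio 0.954 (0.938 to 0.971). None of the 33 genes was called in either direction, where 3.58% of all genes were called higher and 12.4% lower. The lowest ratios were those of Pcna (106 CPM in scratch-negative, 72.0 CPM in scratch-positive, ratio 0.678), Top2a (256 and 194 CPM, 0.759) and Mcm3 (59.8 and 47.6 CPM, 0.795). The highest were those of Bub1b (14.4 and 19.7 CPM, 1.37), Stmn1 (334 and 426 CPM, 1.28) and Cdc20, the activator of the anaphase-promoting complex (75.9 and 94.6 CPM, 1.25). Of the 66 further mitotic factors and 9 G1 cyclins and kinases none was called, and of the 7 CDK inhibitors Cdkn2b was called higher. Different clusters held most of the class: 139 of 183 carcinoma cells of scratch-negative were in a cluster led by Gbp4, and 2067 of 3518 of scratch-positive in one led by Areg. Within the Gbp4 cluster the mitotic ratio was 1.23 (1.21 to 1.24) and the replication ratio 0.986 (0.962 to 1.01).

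Within the carcinoma of scratch-positive the clusters differed in their mitotic genes. A cluster led by Areg and Phlda2 held 2067 cells, of which 74.0% (72.1 to 75.9) were mitotic-positive, and a cluster led by Clu and Krt17 held 1179 cells, of which 37.7% (34.9 to 40.5) were. A cluster led by the interferon-induced GTPases Gbp4 and Igtp stood at 66.9% (61.0 to 72.5). Of the 21 mitotic genes 19 were called lower in the Clu cluster than in the Areg cluster and none higher, where 2.66% of all genes were called lower. The members had no part in drawing these clusters, since cell cycle genes had been left out, but genes that vary with them may have had. Ccna2, cyclin A2, stood at 56.3 CPM in the Clu cluster and 110 CPM in the Areg cluster, Ube2c at 420 and 802 CPM, and Cenpf at 49.1 and 92.3 CPM. The replication genes differed less: 2 of 11 were called lower, and Mcm6 stood at 42.7 and 50.8 CPM and Mcm4 at 53.2 and 62.8 CPM. The summed ratio was 0.575 (0.572 to 0.579) for the mitotic and 0.713 (0.705 to 0.72) for the replication genes. Among the other lists 43 of 66 mitotic factors were lower, and the cyclin Ccnd2 (314 and 207 CPM) and the CDK inhibitor Cdkn2b (140 and 87.1 CPM) were called higher in the Clu cluster. They were 1 of 9 G1 cyclins and kinases and 1 of 7 CDK inhibitors, where 13.5% of all genes were called higher. Between the Gbp4 and Areg clusters none of the 33 genes was called (6.07% of all genes higher, 1.58% lower).

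**Figure D4:**
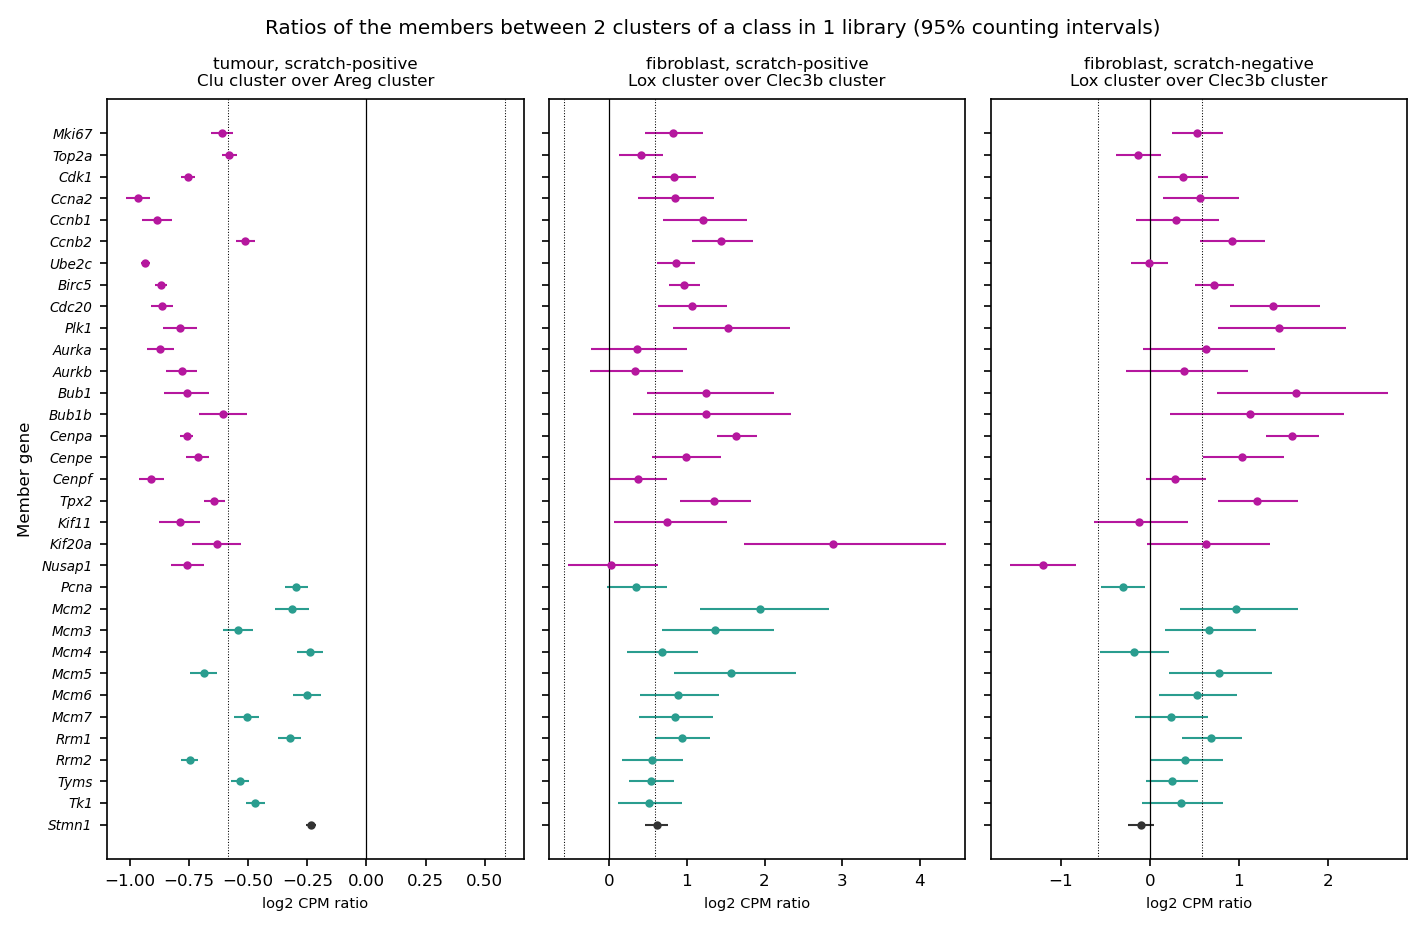
Ratio of each of the 33 genes between 2 clusters of carcinoma cells or fibroblasts of 1 library, as log2 of the CPM ratio (x axis) with 95% counting intervals and dotted lines at 1.5-fold; mitotic genes in magenta, replication genes in teal, Stmn1 in black. All 33 points lie below 0 in the carcinoma panel, with the mitotic genes farther out than most replication genes.

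Fibroblasts and periosteal cells held more of both gene sets in scratch-positive than in scratch-negative. The summed mitotic level was 658 CPM (646 to 670) in scratch-negative and 1123 CPM (1104 to 1142) in scratch-positive, a ratio of 1.71 (1.67 to 1.75), and the replication ratio was 1.52 (1.46 to 1.58). The mitotic-positive share was 14.0% (11.2 to 17.2; 76 of 544 cells) and 24.9% (20.8 to 29.3; 103 of 414 cells), at median depths of 29592 and 28546 UMIs, and 31.8% and 62.1% without thinning. The control library held 48 fibroblasts, of which 1 was mitotic-positive, with a summed mitotic level of 78.8 CPM (56.8 to 106), and was not compared. Of the 21 mitotic genes 16, of the 11 replication genes 7, and Stmn1 were called higher and none lower, where 11.3% of all genes were called higher and 16.2% lower. The median log2 ratio was 0.75 for mitotic and 0.71 for replication genes and 0.02 for all genes.

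The genes called higher included kinases, kinetochore and nucleotide supply genes. Cenpa, the histone of centromeres, stood at 80.4 CPM in scratch-negative and 170 CPM in scratch-positive, a ratio of 2.12 (1.98 to 2.27). Birc5, of the chromosomal passenger complex, went from 92.4 to 184 CPM, and Stmn1 from 134 to 279 CPM. Cdk1 (45.9 and 89.8 CPM) and Tk1, thymidine kinase (18.2 and 36.0 CPM), had ratios close to these. The 3 lowest ratios were those of Pcna (44.2 and 38.2 CPM, 0.865), Nusap1, a spindle protein (15.4 and 15.2 CPM, 0.983), and Mki67 (49.2 and 53.5 CPM, 1.09).

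The other cell cycle lists in fibroblasts showed both directions. The licensing and fork factors were called higher in 14 of 33 and the further mitotic factors in 21 of 66 cases, and none was lower. Cdt1, a licensing factor, had a ratio of 2.15, and Gins1, of the replicative helicase, stood at 4.19 and 8.39 CPM. Among G1 cyclins and kinases 3 of 9 were called higher, including Ccnd1, cyclin D1 (16.1 and 49.8 CPM, 3.09), and Ccne1, cyclin E1 (1.81), while Ccnd2 had a ratio of 0.818 and Ccnd3 of 0.88, and neither was called. Among CDK inhibitors Cdkn1a, a p53 target, was called lower (288 and 129 CPM, 0.447) and Cdkn2b (4.35) and Cdkn2a (3.67 and 36.2 CPM, 9.89) were called higher. The carcinoma cells of scratch-positive held Cdkn2a at 923 CPM, and the sum of 12 carcinoma markers in fibroblasts was 60.9 CPM in scratch-negative and 125 CPM in scratch-positive, against 4258 CPM in the carcinoma cells of scratch-positive. The same sum was 91.7 to 126 CPM in osteoclasts, mature neutrophils and macrophages of scratch-positive. The part of carcinoma RNA in the fibroblast ratios was not tested.

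**Figure D5:**
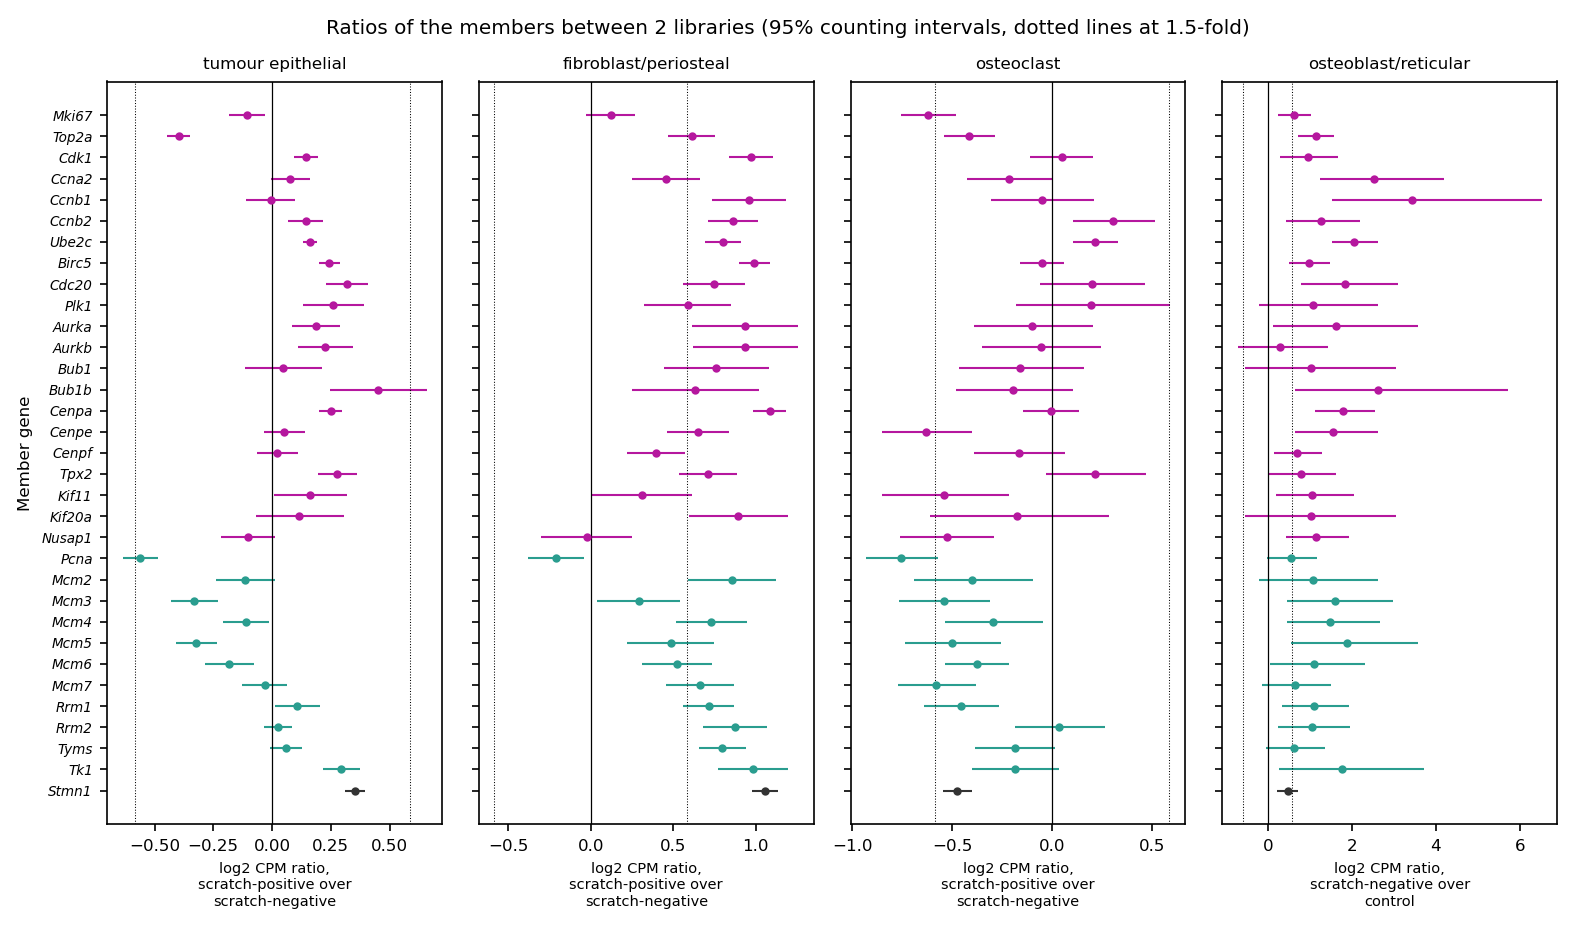
Ratio of each of the 33 genes between 2 libraries in 4 classes, as log2 of the CPM ratio (x axis, scaled per panel) with 95% counting intervals and dotted lines at 1.5-fold; mitotic genes in magenta, replication genes in teal, Stmn1 in black. The fibroblast points lie mostly to the right of 0 with Pcna at the left end, and the carcinoma points stay between the dotted lines.

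A fibroblast cluster led by Tagln, Lox and Lrrc15 held most of the mitotic-positive cells. Its share was 18.5% (14.5 to 23.0) in scratch-negative and 30.7% (25.6 to 36.2) in scratch-positive, and it held no control cells. A cluster led by Clec3b and Fmod stood at 6.06% (3.17 to 10.3) and 8.33% (3.88 to 15.2). In scratch-positive 16 of 21 mitotic and 7 of 11 replication genes were called higher in the Lox than in the Clec3b cluster (10.2% of all genes), led by Kif20a, a cytokinesis kinesin (20.6 and 2.80 CPM), Mcm2 (25.2 and 6.54 CPM) and Cenpa (193 and 62.1 CPM). In scratch-negative 9 of 21 mitotic and 4 of 11 replication genes were called higher (8.66% of all genes) and Nusap1 was called lower (12.3 and 28.3 CPM; 24.2% of all genes). The CDK inhibitor Cdkn1c, known from resting cells, went the other way in both libraries, at 37.0 against 433 CPM in scratch-negative and 55.7 against 377 CPM in scratch-positive. The mitotic ratio of scratch-positive over scratch-negative was 1.75 (1.71 to 1.80) within the Lox cluster and 1.29 (1.20 to 1.39) within the Clec3b cluster.

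Genes of neutrophils and other leukocytes differed between mitotic-positive and other fibroblasts. S100a8, a neutrophil gene, stood at 27556 CPM in the positive and 8398 CPM in the other fibroblasts of scratch-negative, and Ptprc, the leukocyte antigen CD45, was seen in 46.1% and 20.3% of them. In scratch-positive S100a8 was 1360 and 1469 CPM and Ptprc was seen in 5.83% and 7.07% of cells, while Elane, a gene of neutrophil progenitors, was at 5.37 and 2.46 CPM, a ratio of 2.18 (1.12 to 4.23), and Mpo at 8.86 and 6.44 CPM. With Ptprc-containing cells left out, an alternative added after seeing the data, the share became 9.90% in scratch-negative and 25.1% in scratch-positive. The summed mitotic ratio was then 2.17, and all 21 mitotic genes were called higher. The share of all genes called higher was not counted in that setting.

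Osteoblasts, grouped with the marrow reticular cells that shared their cluster, held a summed mitotic level of 501 CPM (453 to 552) in control and 1168 CPM (1121 to 1217) in scratch-negative, a ratio of 2.33 (2.10 to 2.60). Of the 21 mitotic genes 17 and of the 11 replication genes 7 were called higher and none lower, where 7.68% of all genes were called higher and 15.2% lower. The highest ratios were those of Ccnb1 (2 UMIs in control and 53 in scratch-negative, ratio 10.9, 2.86 to 92.1), Bub1b (2 and 30 UMIs, 6.15, 1.56 to 53.1) and Ccna2 (5 and 70 UMIs, 5.74, 2.35 to 18.2), which rest on few control UMIs. Ube2c stood at 41.0 and 170 CPM and Mki67 at 88.2 and 136 CPM. Aurkb (1.23), Stmn1 (1.38) and Pcna (1.46) had the lowest ratios.

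Few cells held most of these UMIs, and neutrophil RNA moved with them. The mitotic-positive share was 5.08% (1.06 to 14.1; 3 of 59 cells) in control and 14.0% (7.66 to 22.7; 13 of 93 cells) in scratch-negative, with 26 and 65 cells left out as too shallow, so the intervals overlapped. In scratch-negative the 13 positive cells held 87.8% of the mitotic UMIs of the thinned cells. They carried S100a8 at 96507 CPM against 22982 CPM in the other cells, Ptprc in 84.6% against 17.5% of cells, and Col1a1, the bone collagen, at 23834 against 66824 CPM. With Ptprc-containing cells left out the share in scratch-negative was 2.94%. The summed ratio was then 4.17, and 10 of 15 measured mitotic genes were called higher. The share of all genes called was not counted in that setting, and the part of leukocyte RNA in the difference was not tested. At a finer clustering, and with at least 1000 genes per cell, 8 mitotic genes were called higher and the summed ratio was 1.74 and 1.73. The share of all genes called was not counted in these settings either.

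In osteoclasts 3 of the 33 genes were called lower in scratch-positive than in scratch-negative, near the share of all genes called lower (10.1%). The summed mitotic level was 1407 CPM (1370 to 1444) in scratch-negative and 1309 CPM (1297 to 1321) in scratch-positive, a ratio of 0.931 (0.905 to 0.957), and the replication ratio was 0.762 (0.730 to 0.795). Without the removal of doublets the mitotic ratio was 1.20, in the other direction. No gene was called higher (8.8% of all genes), and Mki67 (132 and 85.9 CPM), Cenpe, a kinetochore motor (50.4 and 32.6 CPM), and Pcna (79.7 and 47.2 CPM) were called lower (10.1% of all genes). The highest ratios were those of Ccnb2, cyclin B2 (1.23), Tpx2 (1.16) and Ube2c (1.16). The mitotic-positive share was 40.5% (29.9 to 51.7; 34 of 84 cells) and 28.6% (25.6 to 31.7; 249 of 872 cells), so these intervals overlapped. The control library held 26 osteoclasts.

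The mitotic-positive cells of the osteoclast cluster carried lower levels of osteoclast genes than the others. In scratch-positive all 10 markers used for the class were lower in the 249 positive than in the 623 other cells, with a median log2 ratio of -1.16. Ctsk, the bone-degrading protease cathepsin K, stood at 6319 and 12958 CPM, Acp5, tartrate-resistant acid phosphatase, at 3313 and 7383 CPM, and Ocstamp, a fusion protein, at 78.3 and 221 CPM. Oscar (8.50 and 65.8 CPM) and Itgb3, the integrin chain beta3 (3.60 and 23.8 CPM), differed more, and Nfatc1, the transcription factor of the lineage, less (275 and 379 CPM). In scratch-negative all 10 markers also had lower levels in the positive cells. Calcr, the calcitonin receptor, had no UMI in them. With Calcr ranked lowest, the median log2 ratio over all 10 was -1.18. S100a8 was higher in the positive cells of scratch-positive (4288 and 1328 CPM) and so was Ly6c2, a monocyte gene (17.5 and 7.28 CPM), while Csf1r, a receptor of monocytes, macrophages and osteoclasts, was lower (129.7 and 235 CPM). In scratch-negative S100a8 and Ly6c2 stood lower in the positive cells, at 19788 and 24049 CPM and at 59.5 and 66.8 CPM, the latter within counting error. The markers were also the basis for naming the cluster, and the part of RNA from other cells in these differences was not tested.

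More replication than mitotic genes were called in monocytes and macrophages. The summed mitotic level was 1487, 1253 and 1569 CPM and the replication level 460, 381 and 554 CPM in control, scratch-negative and scratch-positive. In scratch-positive over scratch-negative 7 of 11 replication and 4 of 21 mitotic genes were called higher, where 26.8% of all genes were called higher. Tk1 (16.6 and 35.2 CPM, 2.12), Mcm6 (25.4 and 51.6 CPM, 2.03) and Mcm4 (25.3 and 50.2 CPM, 1.98) led, while Mki67 (174 and 160 CPM) and Pcna (66.1 and 61.6 CPM) had ratios below 1. The mitotic share of calls was below that of all genes and the replication share above it, and the median of all genes was itself 0.21 higher on the log2 scale. With median-ratio scaling the mitotic ratio of 1.25 became 1.08. In scratch-negative over control none of the 33 was called (7.25% of all genes lower), and in scratch-positive over control 2 of 21 mitotic and 4 of 11 replication genes were called higher, where 26.8% of all genes were. The class was made of a cluster led by F13a1 and Ccr2, with 267, 139 and 59 cells, and one led by C1qa, with 125, 581 and 865 cells. The mitotic ratio of scratch-positive over control was 2.28 (2.11 to 2.47) within the former and 0.829 (0.81 to 0.848) within the latter. That of scratch-negative over control was 1.49 (1.39 to 1.59) within the former and 0.67 (0.65 to 0.69) within the latter. The direction over the class thus depended on this mixture, and the lack of calls in scratch-negative over control describes neither cluster. The mitotic-positive share was 19.5% (15.5 to 23.9), 21.6% (18.5 to 24.9) and 31.8% (28.8 to 35.0). The positive cells carried more S100a8 than the others, at 131811 against 65844 CPM in control and 49278 against 38068 CPM in scratch-positive, and its part was not tested.

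T cells of scratch-negative and NK cells of both tumour-bearing libraries held more of the mitotic genes than in control, on few cells. T cells of scratch-positive (16 cells) were too few to compare. So were mature B cells of scratch-negative (43 cells) and scratch-positive (16 cells). In T cells the summed mitotic level was 231 CPM (197 to 269; 101 cells) in control and 1032 CPM (945 to 1125; 73 cells) in scratch-negative, a ratio of 4.47 (3.74 to 5.35), while the replication ratio was 1.34 (1.12 to 1.61). Of the 17 measured mitotic genes 13 were called higher and of the 11 replication genes 2, where 6.08% of all genes were called higher and 3.97% lower. Ube2c went from 4 to 58 UMIs (ratio 20.8, 7.70 to 78.9). Cenpf (27 UMIs) and Cenpe (16 UMIs) had no UMI in control and were at least 12.9-fold and 7.65-fold higher, counted against 3 UMIs over the control T cells. Rrm1 (0.516), Pcna (0.986) and Mcm4 (1.02) had the lowest ratios. The mitotic-positive cells numbered 3 of 95 in control and 6 of 67 in scratch-negative, and the intervals of the shares, 0.656 to 8.95% and 3.36 to 18.5%, overlapped. Those 6 cells held 90.8% of the mitotic UMIs of the thinned T cells. Neutrophil precursor markers in T cells went the other way, from 10927 CPM in control to 2686 CPM in scratch-negative. Without doublet removal the T cell ratio was 1.56, with cell cycle genes kept in the clustering 2.13, and at a finer clustering 6.32.

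NK cells also had a higher mitotic than replication ratio in scratch-positive over control, 2.83 (2.43 to 3.30) against 1.54 (1.28 to 1.85). Without doublet removal the mitotic ratio was 1.60. Their summed mitotic level was 359 CPM (321 to 401) in control, 486 CPM (436 to 540) in scratch-negative and 1018 CPM (916 to 1129) in scratch-positive. In scratch-positive over control 9 of 13 measured mitotic and 4 of 11 replication genes were called higher, where 7.47% of all genes were called higher and 4.81% lower. The counts were 4 of 13 and 2 of 11 in scratch-negative over control (3.97% higher, 3.66% lower), and 8 of 15 and 0 of 11 in scratch-positive over scratch-negative (4.43% higher). Kif11, the kinesin that separates the spindle poles (8 and 17 UMIs, 5.27), Birc5 (19 and 39 UMIs, 5.09) and Ube2c (12 and 21 UMIs, 4.34) had the highest and Mcm2 (0.729), Mcm7 (1.04) and Pcna (1.09) the lowest ratios. Only 4 of 50 thinned NK cells were mitotic-positive in scratch-positive (8.00%, 2.22 to 19.2), and 43 were too shallow to thin. Carcinoma markers in NK cells summed to 10.2, 21.1 and 200 CPM over the 3 libraries, and their part was not tested. In pro-B and pre-B cells and in erythroid cells none of the 33 genes was called between scratch-negative and control, where 2.14% and 4.85% of all genes were called higher and 3.06% and 2.74% lower.

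The levels in mature neutrophils, which no longer divide, also differed between libraries. Their summed mitotic level was 196 CPM (190 to 203) in control, 126 CPM (121 to 131) in scratch-negative and 345 CPM (328 to 363) in scratch-positive. In scratch-positive 19 of 21 mitotic genes were called higher than in scratch-negative (13.3% of all genes) and 15 higher than in control (14.3%), and in scratch-negative 9 were called lower than in control (9.89%; 4.78% of all genes higher). None was called in the opposite direction (3.94% of all genes lower in scratch-positive over scratch-negative). Clusters differed within the class: the mitotic ratio of scratch-negative over control was 0.475 (0.445 to 0.508) in the Mmp8, 0.829 (0.72 to 0.955) in the Retnlg and 0.83 (0.728 to 0.945) in the Ccl6 cluster, and 7.62 (5.12 to 11.8) in a small cluster led by interferon-induced genes, with 54 cells in each of these libraries. Ube2c stood at 24.6, 19.4 and 65.2 CPM and Mki67 at 26.9, 11.5 and 35.3 CPM. The mitotic ratio of scratch-positive over scratch-negative was 3.33 (3.08 to 3.60) in the Mmp8, 1.59 (1.28 to 1.97) in the Retnlg and 1.77 (1.46 to 2.14) in the Ccl6 cluster. Carcinoma markers summed to 9.59, 13.2 and 124 CPM and neutrophil precursor markers to 62961, 67161 and 78255 CPM in these cells, and their part was not tested.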

How the data were processed

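Single-cell 3′ libraries (10x Genomics v3.1) of 3 groups were used as deposited counts: UMIs per gene and barcode, which the file headers credit to Cell Ranger 6.1.2 and the authors aligned to build mm10 per the submitters' processing notes. The counts are not normalised. Cells with at least 500 genes and at most 10% mitochondrial UMIs were kept, and the highest Scrublet scores were removed as doublets at 0.8% per 1000 barcodes (449, 580 and 723 cells); Scrublet's own calls numbered 4, 1 and 601, too few in the first 2 libraries for a working call. Cells were clustered (scanpy 1.11.5; 2000 variable genes, 30 components, 15 neighbours, Leiden resolution 1.0) without 359 cell cycle and histone genes, so that the members did not draw the clusters. Of 27 clusters 4 stayed unnamed, and the names are rebuilt from marker genes. Named genes were the 3 highest and 3 lowest members of a comparison and the 2 highest and 2 lowest of other lists, and further genes were added after their values were seen. Members and lists were chosen with earlier results of these data known. The calculation was tested on simulated data. Alternatives were clustering with cycle genes, resolution 2.0, at least 1000 genes, no doublet removal, median-ratio scaling, other UMI minimums, thinning to 6000 UMIs, and 2 or 5 distinct genes; leaving out Ptprc-containing cells and single fibroblast clusters were added after seeing the data.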

Additional observations from a re-analysis of the deposited data

Results flagged for a closer look

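In 3 classes the summed mitotic level of scratch-negative differed from control while other classes differed little or in the other direction, and the difference between classes was not tested: the ratio was 2.333 in osteoblasts and reticular cells, 4.468 in T cells and 0.643 in mature neutrophils. Some of the clusters that marker genes left without a name had mitotic-positive shares above that of the mature neutrophils of their library. A cluster led by Fpr1, Irak3 and Olr1 had shares of 24.79% in control, 26.25% in scratch-negative and 40.48% in scratch-positive. A cluster led by the chemokine genes Ccl3 and Ccl4 had 5.44% in scratch-negative and 11.17% in scratch-positive. It carried 9 mature neutrophil markers and was left unnamed as shallow, so it is not part of the mature neutrophil shares above. A cluster led by Sapcd2, Pimreg and Hmga1 had 73.2% in scratch-positive, where 113 of its 307 cells were too shallow to thin.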

How the results depend on the processing

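Under the alternatives 42 values of the main results stayed within their intervals or, for counts, within 1.5 times, 48 did not, and 1 changed direction. For counts of genes called higher, the share over all genes was not counted under the alternatives. Ratios below are of summed mitotic CPM, for fibroblasts, carcinoma cells and osteoclasts in scratch-positive over scratch-negative and for osteoblasts and T cells in scratch-negative over control; the causes were not tested.

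With cell cycle genes kept in the clustering the ratios were 1.959 (fibroblasts), 1.102 (carcinoma), 0.9683 (osteoclasts) and 2.132 (T cells), and the mitotic-positive shares 30.75% (fibroblasts, scratch-positive) and 39.21% (neutrophil precursors, control). At resolution 2.0 they were 1.097 (carcinoma), 1.738 (osteoblasts, with 8 mitotic genes higher), 0.9761 (osteoclasts), 6.319 (T cells) and 50.04% (neutrophil precursors). With at least 1000 genes they were 1.944, 1.096, 1.731 (8 genes higher) and 6.269 for fibroblasts, carcinoma, osteoblasts and T cells, and 31.62% for fibroblasts of scratch-positive. Without doublet removal the osteoclast ratio reversed to 1.204, and the others were 1.571 (fibroblasts), 1.103 (carcinoma) and 1.557 (T cells), with fibroblast shares of 17.53% and 33.82%. Median-ratio scaling gave 2.642 (osteoblasts) and 0.8896 (osteoclasts), and a minimum of 30 UMIs left 5 mitotic genes higher in T cells.

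The mitotic-positive shares of carcinoma in scratch-positive, fibroblasts of scratch-negative and of scratch-positive, and neutrophil precursors in control were 73.37%, 17.78%, 36.05% and 46.86% thinned to 6000 UMIs, and 42.26%, 8.088%, 13.29% and 38.45% with 5 distinct genes. With 2 distinct genes they were 71.3% (carcinoma), 34.3% (fibroblasts, scratch-positive) and 45.94% (precursors). Among the alternatives added after seeing the data, leaving out Ptprc-containing cells gave 2.171 (fibroblasts), 4.172 (osteoblasts, 10 genes higher) and 9.903% (fibroblasts, scratch-negative). The Lox fibroblast cluster alone gave 1.753, 18.5% and 30.72%, and the Clec3b cluster 1.293, with 6 genes higher, 6.061% and 8.333%.

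No paired analysis was possible because each group is 1 library. For the same reason all intervals cover counting error only, and no difference can be set against the spread between mice. Depth limits T, NK and mature B cells most, where several mitotic genes had under 10 UMIs.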

Other observations

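The genes outside every list whose levels ran most nearly parallel to the summed mitotic genes over the 31 class-by-library levels were Rnaseh2b (Pearson correlation 0.92), Hist1h1b (0.90), Commd1 (0.90), Ccdc34 (0.90), Brip1 (0.89), Poc1a (0.88), Cmc2 (0.88), Bub3 (0.88), Nxt1 (0.87) and Pkmyt1 (0.86). The levels share libraries and depth, and the correlations are a description.

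In T cells of scratch-negative, 18 of 36 measured further mitotic factors were called higher than in control. So were 5 of 28 licensing and fork factors and none of 7 G1 cyclins and kinases, where 6.08% of all genes were called higher and 3.97% lower. Myc, a growth regulator, had a ratio of 2.63 and the CDK inhibitor Cdkn1b, of resting cells, 0.63. In monocytes and macrophages 20 of 33 licensing and fork factors and 6 of 66 further mitotic factors were called higher in scratch-positive than in scratch-negative, where 26.8% of all genes were. In osteoclasts Ccnd2, cyclin D2, had a ratio of 2.56 and Ccnd3, cyclin D3, 0.36 in scratch-positive over scratch-negative.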
